A study of Zea mays with 8 samples.

Results

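Genes whose leading transcript differed between ded1-ref and normal maize endosperm were described here from transcript levels given as TPM (a length-corrected share of a library). The deposited table lists 1 row for each annotated transcript, and rows of 1 gene share its ID up to the transcript number (T01, T02 and so on). A gene was chosen if it had at least 2 rows, averaged at least 5 TPM summed over its rows in ded1-ref and in normal endosperm, and had 1 row with over 50% of its TPM in each of the 4 ded1-ref libraries and a different row with over 50% in each of the 4 normal libraries. Of 39423 genes, 12657 had at least 2 rows, 1746 also met the level condition, and 2 met the whole rule. These are GRMZM2G092663 and GRMZM2G108348. In both, each of the leading rows was lower in ded1-ref on the TPM scale, where 69.8% of all genes tested were called lower. The row that led in normal endosperm was lower by more. With TPM scaled to the median gene, the row that led in ded1-ref averaged 1.27 (GRMZM2G092663) and 1.26 (GRMZM2G108348) times its normal level. The row that led in normal endosperm averaged 0.787 and 0.612 times its normal level. The rule reads the same ded1-ref and normal TPM that are described below, so the change of lead in both genes is a property of the choice. Their values are given as a description, without a test.

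The study sequenced RNA of endosperm, the storage tissue of the kernel, at 12 days after pollination in Zea mays of the W22 background. Mutant pools came from kernels labelled ded1-ref, an allele of ded1 (GRMZM2G121570), known to encode an endosperm MYB transcription factor. The other pools came from normal kernels, and each of the 4 mutant pools has a matching pool of normal siblings. A library therefore averages over the kernels of a pool, whose number is not stated. The labels do not say what the ded1-ref lesion does to the transcript, and the normal kernels' own genotype at ded1 is not stated.

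A plant gene can give several mature transcripts, by alternative splicing of its introns, by transcription from another start, or by cleavage and polyadenylation at another site. Such transcripts can differ in the protein they encode, in their untranslated ends, or in whether nonsense-mediated decay degrades them. In maize endosperm, splicing is known to matter for development: the kernel mutants rough endosperm3 and rbm48 affect proteins of U12-type intron splicing.

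The libraries held 10536845 to 20725033 recovered reads. ded1 itself was higher in the libraries labelled ded1-ref, with 67.3 to 101 TPM, against 37.0 to 42.0 TPM in normal libraries. Its log2 change was 0.91 ± 0.15 (SE; limma adjusted p = 2.93e-04). Without knowing what the lesion does to the transcript, this level gives no check of the mutant labels, and directions refer to libraries as labelled. Of the endosperm markers, mostly zeins, 0 of 29 were at 0, and their sum ran from 381302 to 431299 TPM in ded1-ref and from 295234 to 322549 TPM in normal endosperm. Of 10 embryo markers, 2 were at 0 in every library, and the sum ran from 235 to 432 TPM in ded1-ref and from 293 to 516 TPM in normal endosperm. The 1 maternal marker, m6, stayed between 0.354 and 1.30 TPM in ded1-ref and between 0.432 and 3.87 TPM in normal libraries. The part of these marker levels in the row shares was not tested. Over all 13671 genes tested, the median log2 change was -0.68 on the TPM scale. It was -0.0029 after TPM were divided by median-of-ratios factors, here called scaled TPM. A share of a gene's TPM does not move with this scaling.

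GRMZM2G092663 has 2 rows, and both were measured. No function is given here for either chosen gene: the name table lists them as LOC100383062 and LOC100282862, with no informative symbol. The rows of GRMZM2G092663 are 1199 bases (T01) and 1229 bases (T02) long, lengths that were worked out from the reads and the TPM. They differ by 30 bases.

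T01, the row that led in ded1-ref, held 62.7%, 51.5%, 55.7% and 57.2% of the gene's TPM in ded1-ref replicates 1 to 4. It held 42.6%, 42.1%, 45.6% and 49.1% in normal replicates 1 to 4. Every ded1-ref library was above every normal library, and the nearest values were those of ded1-ref replicate 2 and normal replicate 4. The rule fixes this separation and the direction within each pair. Of all eligible genes, 4.35% had a row whose shares did not overlap between the groups. The means were 56.8% ± 4.61 in ded1-ref and 44.8% ± 3.25 in normal endosperm (SD, n = 4 each). Within pairs the share was higher in ded1-ref by 11.9 ± 5.50 points (SD over 4 pairs, from 8.04 to 20.1), in 4 of 4 pairs. T02 holds the remainder, 43.2% ± 4.61 in ded1-ref and 55.2% ± 3.25 in normal endosperm.

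**Figure D1:**
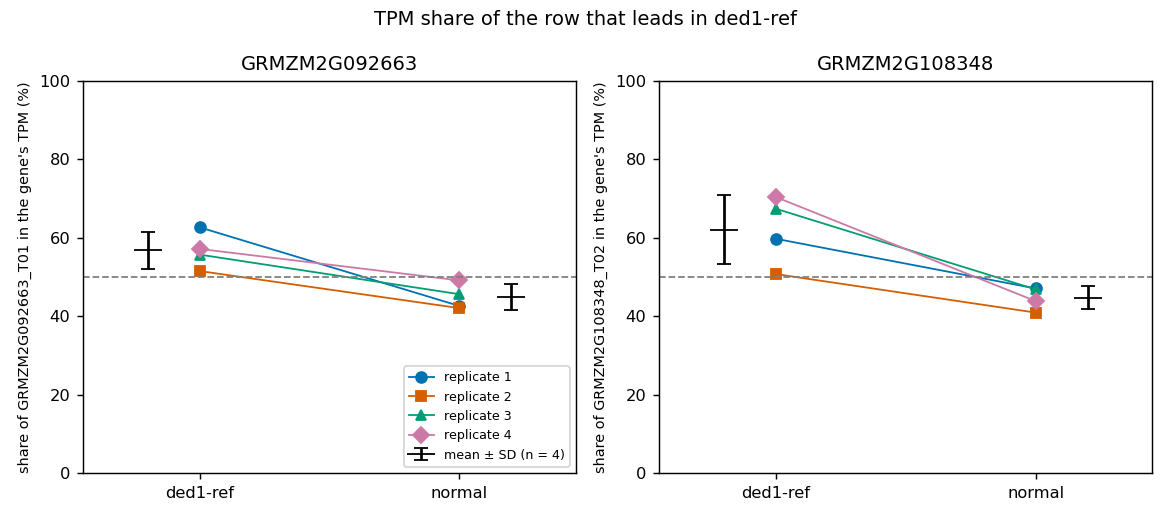
Share of a gene's TPM (vertical axis, %) held by the row that led in ded1-ref, for GRMZM2G092663 (left) and GRMZM2G108348 (right), in ded1-ref and normal libraries. Lines join the pools of a pair, bars show mean ± SD (n = 4), and the dashed line marks 50%, which every ded1-ref point is above and every normal point below because genes were chosen by it; the lowest ded1-ref shares, 51.5% and 50.7%, are both from replicate 2.

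The levels behind these shares were lower in ded1-ref for both rows. T01 measured 9.26, 11.4, 7.15 and 18.8 TPM in ded1-ref, against 15.5, 14.8, 14.4 and 20.2 TPM in normal endosperm (replicates 1 to 4). T02 was at 5.52, 10.7, 5.69 and 14.1 TPM in ded1-ref, against 20.8, 20.3, 17.2 and 20.9 TPM in normal endosperm. The T01 ranges overlap, because ded1-ref replicate 4 exceeded normal replicates 1 to 3, while the T02 ranges do not overlap. How often rows of other genes separate on TPM is not given here, and 69.8% of all genes tested were called lower on this scale. The ratio of group means was 0.720 for T01 and 0.455 for T02, and both rows were lower in 4 of 4 pairs. On the TPM scale both rows were thus lower, T02 by more than T01. The direction of T01 depends on the scale.

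On scaled TPM, where the median gene does not move, the rows of GRMZM2G092663 lay on either side of no change. T01 averaged 15.1 ± 5.76 in ded1-ref and 11.9 ± 2.21 in normal endosperm, a ratio of 1.27, and was higher in 4 of 4 pairs. T02 averaged 11.4 ± 4.30 in ded1-ref and 14.5 ± 1.78 in normal endosperm, a ratio of 0.787, and exceeded the normal pool in 1 of 4 pairs. For single rows, the authors' deposited table gives log2 folds of 0.33 for T01 (SE 0.258, adjusted p = 0.495) and -0.33 for T02 (SE 0.249, adjusted p = 0.466), so that neither row passed an adjusted p of 0.05 in it.

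**Figure D2:**
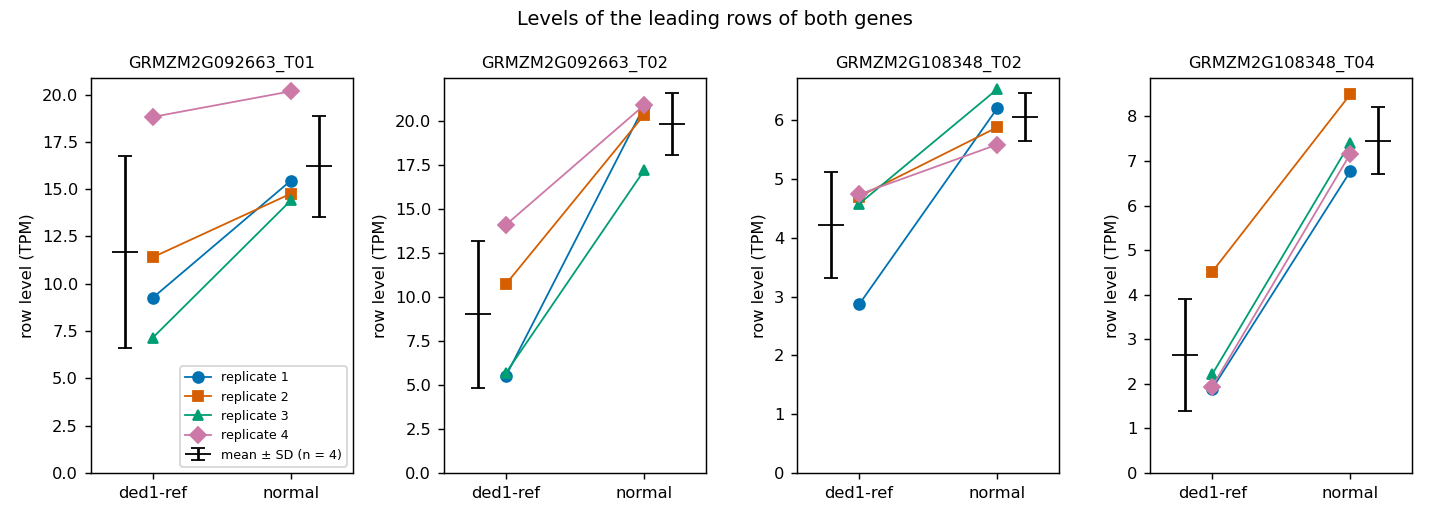
TPM (vertical axis, from 0, each panel on its own scale) of the 2 leading rows of GRMZM2G092663 and of GRMZM2G108348 in ded1-ref and normal libraries. Lines join the pools of a pair and bars show mean ± SD (n = 4); all 4 rows were lower in ded1-ref in 4 of 4 pairs, with mean ratios of 0.720 and 0.455 for the first gene and 0.698 and 0.354 for the second.

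The reads behind the shares set how firmly the order of the rows is known in 1 library. T01 had 226 of 364, 228 of 448, 119 of 216 and 358 of 633 recovered reads of GRMZM2G092663 in ded1-ref replicates 1 to 4. In normal replicates 1 to 4 it had 244 of 581, 160 of 386, 247 of 549 and 275 of 567. By reads alone T01 still led in every ded1-ref library and T02 in every normal library, with T01 at 56.2% ± 4.63 in ded1-ref and 44.2% ± 3.24 in normal endosperm. The 95% interval of the TPM share (exact Clopper-Pearson, from the reads of both rows) included 50% in 2 ded1-ref libraries and 1 normal library. It ran from 46.8% to 56.2% in ded1-ref replicate 2, from 48.8% to 62.4% in ded1-ref replicate 3 and from 44.9% to 53.3% in normal replicate 4. Such intervals cover counting error only, and how reads that fit both rows were divided is not given in the sources used here. Over all libraries of a group T01 had 931 reads in ded1-ref and 926 in normal endosperm, while T02 had 730 in ded1-ref and 1157 in normal endosperm. These sums are not corrected for depth, so a row's sums cannot be compared between groups. Libraries held 13924952 to 20725033 reads in ded1-ref and 10536845 to 16246294 in normal endosperm.

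The gene total of GRMZM2G092663 was 14.8, 22.1, 12.8 and 32.9 TPM in ded1-ref replicates 1 to 4, against 36.3, 35.1, 31.6 and 41.1 TPM in normal replicates 1 to 4. The groups overlap in 1 place, since ded1-ref replicate 4 stood above normal replicate 3. In log2 units the total differed by -0.86 ± 0.18 (SE) on TPM and by -0.05 ± 0.16 (SE) on scaled TPM, ded1-ref minus normal. In bulk RNA, fewer cells that express a gene and less RNA of it per cell cannot be told apart.

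GRMZM2G108348 has 4 rows, of which T02 (1542 bases) and T04 (651 bases) carried nearly all of its TPM. T01 (1083 bases) reached 0.0582 TPM at most in ded1-ref and 0.210 TPM at most in normal libraries, from 3 reads in each group. T03 was listed at 0 in all 8 libraries. The leading rows differ by 891 bases, a length ratio of 2.37, which is much further apart than the rows of GRMZM2G092663.

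T02, the longer row, led in ded1-ref and held 59.7%, 50.7%, 67.4% and 70.4% of the gene's TPM in ded1-ref replicates 1 to 4. It held 47.1%, 40.9%, 46.8% and 43.8% in normal replicates 1 to 4. The groups do not overlap, and ded1-ref replicate 2 came nearest to the normal libraries. Here too the rule fixes this separation and the direction within each pair. T04, the short row, held 39.3%, 48.7%, 32.6% and 28.7% in ded1-ref, against 51.3%, 59.1%, 53.2% and 56.2% in normal endosperm. The mean share of T02 was 62.1% ± 8.79 in ded1-ref and 44.7% ± 2.90 in normal endosperm, and it was higher in ded1-ref by 17.4 ± 7.61 points (SD over 4 pairs, from 9.82 to 26.5), in 4 of 4 pairs.

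Both leading rows of GRMZM2G108348 were lower in ded1-ref on the TPM scale. T02 measured 2.87, 4.71, 4.58 and 4.74 TPM in ded1-ref replicates 1 to 4, against 6.21, 5.88, 6.53 and 5.59 TPM in normal replicates 1 to 4. T04 was at 1.89, 4.51, 2.21 and 1.94 TPM in ded1-ref, against 6.77, 8.50, 7.41 and 7.16 TPM in normal endosperm. Neither row's ranges overlap between the groups, and ded1-ref replicate 2 held the highest ded1-ref level of T04. How often rows of other genes separate in this way is not given here, and 69.8% of all genes tested were called lower on this scale. The ratio of group means was 0.698 for T02 and 0.354 for T04.

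On scaled TPM the means of the leading rows of GRMZM2G108348 lay on either side of no change. T04 averaged 3.33 ± 0.949 in ded1-ref (2.43 to 4.53) and 5.44 ± 0.219 in normal endosperm (5.28 to 5.77), a ratio of 0.612. Its ranges did not overlap, and its level was lower in 4 of 4 pairs. The share of all rows that separate on scaled TPM is not given here. T02 averaged 5.58 ± 1.48 in ded1-ref and 4.44 ± 0.451 in normal endosperm, a ratio of 1.26, and exceeded the normal pool in 3 of 4 pairs. For these rows the authors' deposited table gives log2 folds of 0.30 for T02 (SE 0.232, adjusted p = 0.471) and -0.66 for T04 (SE 0.286, adjusted p = 0.107), and its unadjusted p for T04 is 0.0204.

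By reads, in contrast to TPM, the lead of GRMZM2G108348 did not change. T02 had 90 of 116, 121 of 171, 98 of 118 and 116 of 137 reads in ded1-ref replicates 1 to 4. It had 126 of 187, 82 of 132, 144 of 213 and 98 of 151 reads in normal replicates 1 to 4. T02 therefore held most reads of the gene in all 8 libraries, at 79.0% ± 6.28 in ded1-ref and 65.5% ± 2.57 in normal endosperm. A row of 1542 bases needs 70.3% of the reads of both leading rows to equal the TPM of a row of 651 bases, so the change of lead in TPM is a crossing of 70.3% in reads. In GRMZM2G092663 the same point is 49.4%, and reads and TPM give the same order. T04 itself rested on 25, 49, 20 and 20 reads in ded1-ref replicates 1 to 4 and on 58, 50, 69 and 53 in normal replicates 1 to 4.

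**Figure D3:**
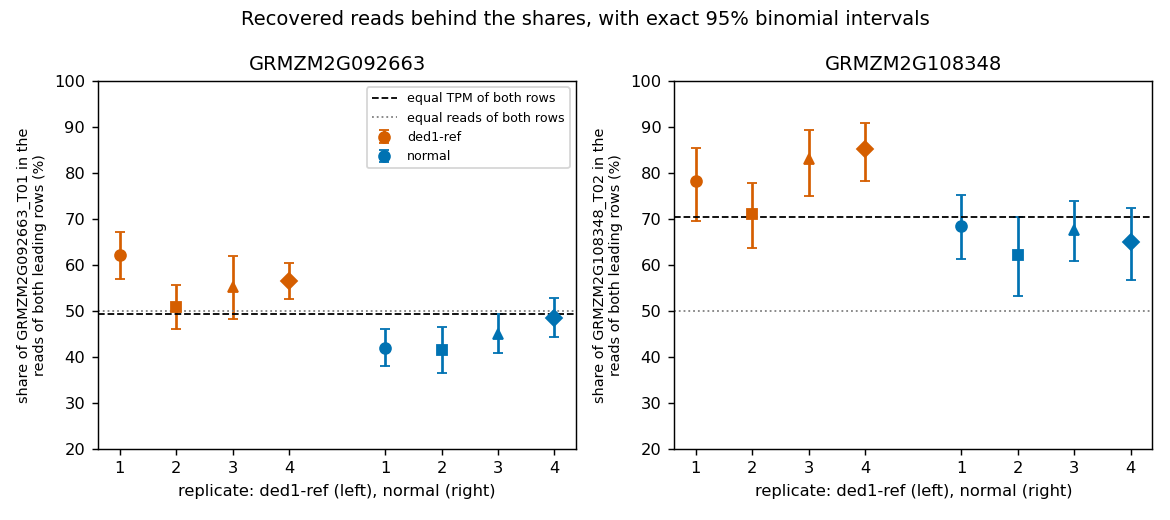
Share of the reads of both leading rows (vertical axis, %, from 20 to 100) that fell to the row leading in ded1-ref, by replicate, with exact 95% binomial intervals. The dashed line is the read share at which both rows have equal TPM, 49.4% for GRMZM2G092663 and 70.3% for GRMZM2G108348, and the dotted line is equal reads; all 8 points of GRMZM2G108348 lie above the dotted line.

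The interval of the TPM share of T02 against T04 included 50% in 2 ded1-ref libraries and in all 4 normal libraries. It ran from 49.2% to 71.2% and from 42.6% to 59.7% in ded1-ref replicates 1 and 2. In normal replicates 1 to 4 it ran from 40.0% to 56.0%, from 32.5% to 50.1%, from 39.6% to 54.4% and from 35.6% to 52.7%. Only ded1-ref replicate 3 (55.9% to 77.9%) and ded1-ref replicate 4 (60.2% to 80.6%) lay clear of equal TPM. At this depth the row order of GRMZM2G108348 was thus not fixed in any 1 normal library, though T02 stood below T04 in all 4, which the rule requires.

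The row length used for TPM also bears on the order in GRMZM2G108348. The labels give a median insert of 200 bases. With each row's length reduced by it, the point of equal level moves to 74.8% of the reads, and T02 holds 54.3%, 45.1%, 62.3% and 65.6% of the gene in ded1-ref replicates 1 to 4. Replicate 2 then no longer has T02 in the lead, so GRMZM2G108348 would not meet the rule. This reading was added after the values were seen.

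The gene total of GRMZM2G108348 was 4.80, 9.27, 6.79 and 6.74 TPM in ded1-ref replicates 1 to 4, against 13.2, 14.4, 13.9 and 12.8 TPM in normal replicates 1 to 4. These totals do not overlap between the groups, a trait whose share over all genes is not given here. In log2 units the total differed by -0.91 ± 0.19 (SE) on TPM and by -0.15 ± 0.16 (SE) on scaled TPM. Both chosen genes were called lower on the TPM scale, where 69.8% of all 13671 genes tested were called lower in ded1-ref and 3.53% higher (limma with Benjamini-Hochberg adjustment at 0.05). On scaled TPM neither was called, with 10.6% of genes called lower and 12.3% called higher. The totals of both genes thus stood near the change of the median gene.

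Both genes have a nearly even split in common, which the rule favours. In normal endosperm the leading row of GRMZM2G092663 held 55.2% and that of GRMZM2G108348 held 54.9%, whereas the median eligible gene had 98.2% in its leading row and 1384 of 1746 had over 90%. In 299 of the eligible genes only 1 row was above 0 in any library. The largest change of any row's mean share was 17.6 points in GRMZM2G108348 and 11.9 points in GRMZM2G092663. Over all eligible genes the median of that change was 0.469 points, its 95th percentile 6.27 points and its maximum 28.7 points. It was larger in 3 genes than in GRMZM2G108348 and in 15 than in GRMZM2G092663, so neither chosen gene had the largest change of share. Of 63 genes whose normal lead held 40% to 60%, 9 changed by over 10 points.

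**Figure D4:**
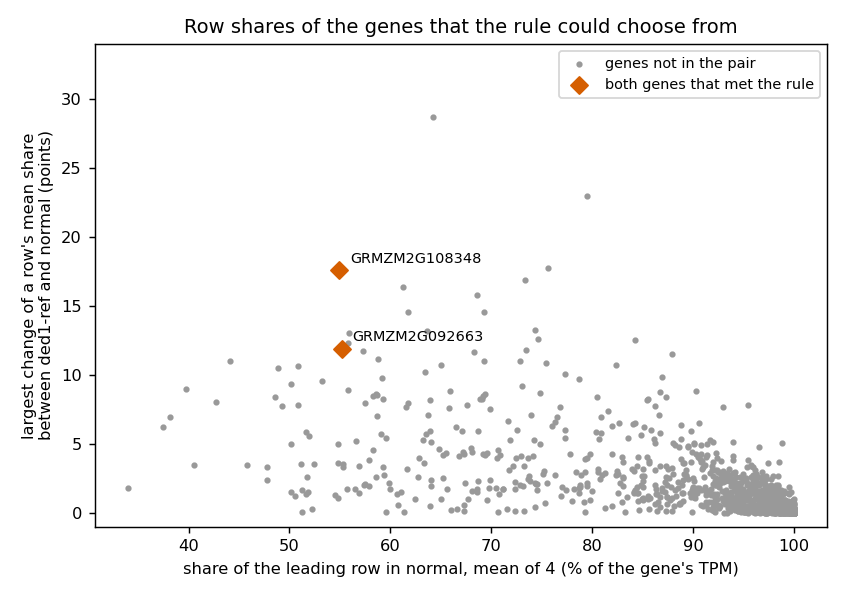
Each point is 1 of the 1746 eligible genes: mean share of the row that led in normal endosperm (horizontal axis, %, n = 4 libraries) against the largest change of any row's mean share between ded1-ref and normal (vertical axis, percentage points). Diamonds mark GRMZM2G108348 (17.6 points) and GRMZM2G092663 (11.9 points), near the left end where the lead is close to even, while most genes crowd near 100% and 0 points; the highest point lies at 28.7 points.

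The same row led in all 8 libraries in 1661 eligible genes. In 83 genes no row led consistently in 1 or both groups: 37 had a consistent lead only in normal libraries, 10 only in ded1-ref libraries, and 36 in neither group. The chosen genes differ in depth: GRMZM2G092663 averaged 468 reads per library (216 to 633) and GRMZM2G108348 averaged 153 (116 to 213), against a median of 386 reads for eligible genes. In row length, the longer row led in ded1-ref for GRMZM2G108348 and the shorter one for GRMZM2G092663. Of 1429 eligible genes with at least 2 measured rows, 33.5% had leading rows with a length ratio above 2, like GRMZM2G108348, and 4.90% had leading rows within 30 bases of each other, like GRMZM2G092663.

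Changes of row share were also tested gene by gene, to give the background of such changes. The log ratio of each row to the rest of its gene was fitted across all 1746 eligible genes (limma, Simes over rows, Benjamini-Hochberg at 0.05), and 1.66% of genes were called. The count among the chosen genes was 0 of 2. With a pseudocount of 1 in place of 0.1 TPM it was 1 of 2 (GRMZM2G108348), beside 577 of all 1746 genes. Nothing is read from either count because the rule used the same contrast. Of the 29 genes called, 28 had their other rows below 1 TPM in every library, where the ratio follows the level of the gene. Of all 1746 genes tested, 940 had their other rows below 1 TPM in every library. With the row and the remaining rows both at 1 TPM or more in at least 4 libraries, a condition added after this was seen, limma called 0 of 552 genes, with 45 at an unadjusted p below 0.05. limma diffSplice on recovered reads called 2 of 534 genes, or 0.375%, and neither chosen gene was among them.

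The choice was also read in pools it did not use. With pair 1 left out, the rule chose 3 genes from the other 3 pairs, and 2 of them had the same leads in pair 1. With pair 3 left out it chose 4, and 2 held in pair 3. With pair 2 or pair 4 left out it chose 2, and 2 held. The genes that held were GRMZM2G092663 and GRMZM2G108348 each time, which follows from their meeting the rule in all 4 pairs.

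The margins of the chosen genes were small. In the library nearest to the threshold the leading row stood 0.882 points above 50% in GRMZM2G092663 and 0.736 points above it in GRMZM2G108348. The nearest genes outside were GRMZM2G160739, GRMZM2G023242 and GRMZM2G091503, whose worst library lay at -2.70, -3.75 and -4.75 points from 50%. GRMZM2G160739 is z1C1_19, an alpha zein gene of 22866 ± 5198 TPM in ded1-ref and 13824 ± 982 TPM in normal endosperm. Its T01 held 52.4% ± 0.573 in ded1-ref and 48.8% ± 3.25 in normal endosperm, and it failed because T01 also led in normal replicate 1. Alpha zeins are a family of closely similar genes, and how many of its reads fit other zein genes was not tested, so its values are uncertain. GRMZM2G023242 was close to even in both groups, with T05 at 49.4% ± 1.55 in ded1-ref and 48.0% ± 5.45 in normal endosperm. In GRMZM2G091503, T04 held 57.0% ± 8.56 in ded1-ref and 47.7% ± 3.12 in normal endosperm, and T04 also led in normal replicate 3. Its T04 has 1344 bases and its T03 has 274. By reads T04 led in every library, with 81.7% to 90.9% in ded1-ref and 77.6% to 81.9% in normal endosperm. With row length less the insert, T04 held 42.9% at most in ded1-ref and 26.2% at most in normal endosperm.

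Genes taken by name patterns of RNA splicing were 15 gene IDs under 13 names, and 11 were tested. Apart from prp2 and prp4, the names are those of serine/arginine-rich splicing proteins, SR45 and Rgh3. Patterns for cleavage and polyadenylation genes matched no name, so 3′ end choice is not covered. In limma 0 were higher in ded1-ref, also at an unadjusted p below 0.05 and with limma-voom on recovered reads. On the TPM scale 9 were lower, where 3.53% of all genes were called higher and 69.8% lower. On scaled TPM 0 were higher and 2 lower, beside 12.3% of all genes called higher and 10.6% lower. The median log2 change of the 11 was -0.85 on TPM and -0.20 on scaled TPM, against -0.68 and -0.0029 over all genes tested.

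The genes lower on both scales were Rgh3 and RS2Z39. Rgh3 (GRMZM2G128228) encodes the rough endosperm3 splicing factor, related to the U2AF subunit that recognises intron ends. It fell to 3.88 ± 1.42 TPM in ded1-ref, against 10.9 ± 1.49 TPM in normal endosperm (SD, n = 4 each), a log2 change of -1.33 ± 0.23 (SE; limma adjusted p = 3.50e-04) and of -0.62 on scaled TPM (limma adjusted p = 0.0461). RS2Z39 (GRMZM2G474658), a serine/arginine-rich splicing protein, fell to 1.92 ± 0.856 TPM in ded1-ref, against 5.71 ± 1.00 TPM in normal endosperm. Its log2 change was -1.23 ± 0.21 (SE; limma adjusted p = 3.09e-04) and -0.61 on scaled TPM (limma adjusted p = 0.0296). A second ID of Rgh3, GRMZM5G849788, was at 2.45 ± 0.817 TPM in ded1-ref and 6.75 ± 0.953 TPM in normal endosperm, and at -0.53 on scaled TPM it did not pass (limma adjusted p = 0.0698). Of the list, 3 genes could be tested for row shares, and limma called 0, also at an unadjusted p below 0.05, beside 1.66% of eligible genes. limma diffSplice tested 2 of these 3 and called 0, also at an unadjusted p below 0.05. Whether splicing genes have a part in the row shares of GRMZM2G092663 and GRMZM2G108348 was not tested.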

How the data were processed

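The authors deposited TPM for 63293 transcript rows in 8 libraries. Per the file headers, the deposited comparison gives a mean normalized signal, a log2 fold (ded1-ref over normal) and its SE, a test score, and raw and adjusted p-values. The deposited score has the opposite sign to the fold. Per the labels, libraries were not strand-specific, so overlapping or antisense genes cannot be separated by their reads. The tools named in the submitters' processing notes are GSNAP, Trimmomatic 0.22 and cutadapt 1.1. For the counter, the genome build and the treatment of shared reads, the sources used here give nothing.

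Read numbers were solved for from the deposited signal and TPM. All 236228 values above 0 (100%) came out whole to within 0.05 reads, and 38727 row lengths came out whole to within 0.05 bases, as the smallest scale that makes all lengths whole. A length could therefore be that of the annotation only up to this choice. The median value of 1 read ran from 0.0363 to 0.0823 TPM over the libraries.

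Gene totals are sums of rows. Those that reached 1 TPM in 4 or more libraries entered the test with limma 3.58.1 in R 4.3.3 on log2(TPM + 1), which understates changes of low genes. Row shares were fitted as log2 ratios of a row to the rest of its gene with a pseudocount of 0.1 TPM. Both fits had the replicate number as a block and Benjamini-Hochberg adjustment at 0.05. The design text states that pools were paired and titles of a pair share a family number. Deviations from the group means correlated at 0.115, 0.333, 0.309 and 0.149 in the 4 pairs. Nothing beyond the labels' term biological replicates says how separate the pools were. With the replicate block, p-values measure the spread of the differences within pairs, which limma moderates across genes. Alternatives were scaled TPM, limma-voom and limma diffSplice on recovered reads, other pseudocounts and filters, no block, other thresholds of the rule and each pair left out. The reading with row length less the insert and the 1 TPM condition on both sides of a ratio were added after the data were seen.

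The chosen genes, the marker lists and the splicing list were chosen with earlier results of these data known. All chosen genes and the 3 nearest outside the threshold are named. Marker and splicing genes were matched by name through a RefSeq gene table of the assembly Zm-B73-REFERENCE-NAM-5.0, which matched 18771 of 39423 genes. The splicing pattern also took prp2 and prp4, of which prp4 is also listed as PR-1, a pathogenesis-related name. Both were below the level tested. Sequences and positions of the rows were not used here. The fits were also run on simulated reads with a dispersion of 0.05. For row shares, only a minor row of a changed gene was moved there. Calls that follow the level of the whole gene were therefore not checked.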

Additional observations from a re-analysis of the deposited data

How the results depend on the processing

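The count of genes that met the rule was 2. It was 0 with a lead of over 60%, 1 with a minimum of 10 TPM, 9 with the mean share of a group in place of each library, 1 by shares of reads, and 1 with row length less the insert. It stayed at 2 with no minimum share or a minimum of 1 TPM, and ran from 2 to 4 with a replicate left out. GRMZM2G092663 met the rule in every one of these but the lead of over 60%.

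Genes called by row share numbered 29. They numbered 577 with a pseudocount of 1 TPM, 1 on recovered reads, 2 with limma diffSplice, 0 with row and other rows both at 1 TPM or more, and 0 to 16 with a replicate left out (0 without replicate 2, when 280 genes had an unadjusted p below 0.05). Without the replicate block they numbered 74, and 0 with both at 1 TPM or more (44 at an unadjusted p below 0.05).

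Genes higher and lower numbered 482 and 9539 on TPM, 1688 and 1445 on scaled TPM, and 1829 and 1417 with limma-voom. The ranges with a replicate left out were 366 to 570 and 8038 to 9195, and the counts without the block were 402 and 8842. Of the splicing genes 9 were lower, 2 on scaled TPM and 2 with limma-voom, and 8 to 10 with a replicate left out.

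The gene total of GRMZM2G108348 had a log2 change of 0.0296 ± 0.198 (SE) with limma-voom, within its SE of no change, against -0.91 on TPM. That of GRMZM2G092663 was -0.04 ± 0.17 (SE) with limma-voom. The limma-voom fit also took median-of-ratios factors, and on scaled TPM these totals were -0.15 and -0.05. With a replicate left out the share changes ran from 9.20 to 13.2 points in GRMZM2G092663 and from 14.4 to 19.9 points in GRMZM2G108348. The cause of these differences was not tested. T04 of GRMZM2G108348, with 20 to 69 reads in a library, limits what depth can show.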

Other observations

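Larger changes of row share than those of the genes above were seen in genes that kept their lead, or lost it in some libraries only. The genes of this paragraph were picked after their values were seen, for their size of change or because limma diffSplice called them. In GRMZM2G036448 the T01 row (2008 bases) held 51.6% ± 12.1 of the TPM in ded1-ref and 22.9% ± 11.4 in normal endosperm, and T02 (1816 bases) held 41.0% ± 11.1 in ded1-ref and 64.2% ± 7.08 in normal endosperm (SD, n = 4 each). The T01 ranges were 39.0% to 64.7% in ded1-ref and 9.58% to 37.2% in normal endosperm, so they do not overlap. A row without overlap was seen in 4.35% of eligible genes. The total of GRMZM2G036448 ran from 7.18 to 26.0 TPM in ded1-ref and from 6.60 to 9.65 TPM in normal endosperm. Neither limma diffSplice nor the main limma fit of row shares called this gene. In GRMZM2G540403 the T01 row (1319 bases) held 56.5% ± 8.43 in ded1-ref and 79.5% ± 2.33 in normal endosperm, while T02 (1654 bases) held 43.2% ± 8.46 in ded1-ref and 20.4% ± 2.44 in normal endosperm. Its T01 level was 10.7 ± 2.16 TPM in ded1-ref and 25.1 ± 2.03 TPM in normal endosperm, and its T02 level was 8.23 ± 2.02 TPM in ded1-ref and 6.41 ± 0.785 TPM in normal endosperm. Unlike both genes that met the rule, the leading rows of this gene had means on opposite sides in ded1-ref on the TPM scale itself, T02 higher and T01 lower. Its T03 rested on 0 to 2 reads in a library. limma diffSplice on recovered reads called it (adjusted p = 0.0163), and the limma fit of row shares on TPM did not (adjusted p = 0.0506, and 0.00203 to 0.195 over its alternatives).

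GRMZM2G401308 was called by both tests (limma diffSplice adjusted p = 0.0418; limma row shares adjusted p = 0.0475). Its row-share call was lost on recovered reads (limma adjusted p = 0.161), with the row and other rows both at 1 TPM or more (0.124, and 0.0790 without the replicate block) and with any replicate pair left out (0.133 to 0.177). It held without the block alone, without a filter on low rows and with a pseudocount of 1 TPM (0.00679 to 0.0439). Its minor row T04 (1230 bases) held 2.82% ± 0.515 of the TPM in ded1-ref and 9.38% ± 2.87 in normal endosperm, from 9 to 18 reads per library in ded1-ref and 26 to 48 in normal endosperm. In GRMZM5G858444 the T01 row (760 bases) held 57.9% ± 13.5 in ded1-ref and 75.6% ± 4.47 in normal endosperm, with overlapping ranges. The share of eligible genes with a row whose shares did not overlap between the groups was 4.35%, or 76 genes.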
